A study of Homo sapiens with 9 samples.

Results

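Interferon and RNA-sensing genes are 47 genes of the innate antiviral response, taken by gene symbol from the 18143 genes measured in A549 cells after transfection with small interfering RNAs (siRNAs). All 47 were found in every library. A549 is a human lung adenocarcinoma line. Cells carried scramble siRNA, SiREV1#1 or SiREV1#2 for 48 h, and both SiREV1 siRNAs target REV1, a polymerase of translesion DNA synthesis. Each group held 3 replicates, so 9 libraries of poly(A) RNA were compared, and every one of them was transfected, so each comparison is between transfected cells and none gives the effect of transfection itself.

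Cells sense foreign RNA through receptors in the cytoplasm and in endosomes. The helicases encoded by DDX58 and IFIH1 bind double-stranded or uncapped RNA and signal through the mitochondrial adaptor MAVS, TLR3 binds double-stranded RNA in endosomes, and the kinase EIF2AK2 stops translation when it binds such RNA. The receptors activate IRF3 and IRF7, which induce interferon genes, and secreted interferon then acts through STAT2 and IRF9 on interferon-stimulated genes such as the IFIT, OAS and MX families. Double-stranded RNA, siRNA included, can start this response in some cells, and the comparisons ask whether the genes stood at different levels in the 3 transfected groups.

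Many of these genes carry a short DNA element in their promoter through which interferon acts, and the element is shown here because genes with it moved in opposite directions in the data described further on. RefSeq promoter windows (GRCh38.p14, 250 bases before to 50 bases after the start) were matched by gene identifier for 38 of the 47 genes. The core of the interferon-stimulated response element was searched as GAAANNGAAA and, on the other strand, TTTCNNTTTC, counting overlapping matches. It was present in 55.3% of the 38 windows and in 3.65% of all 27305 promoter windows of the same length. The core of the gamma-activated site, TTCNNNGAA, was present in 23.7% of the 38 and in 7.88% of all windows. A match describes letters in the window and is not a test of binding. The 80-base stretches below read 5′ to 3′ in the direction of the gene, with the cores in capitals. Those of IFIT1 (chr10:89392487-89392566, plus strand), IFI6 (chr1:27672289-27672368, minus strand), IFIT5 (chr10:89414503-89414582, plus strand), IFIH1 (chr2:162318784-162318863, minus strand) and ISG20 (chr15:88638927-88639006, plus strand) hold response element cores, and that of IRF1 (chr5:132490838-132490917, minus strand) holds a gamma-activated site core.
IFIT1: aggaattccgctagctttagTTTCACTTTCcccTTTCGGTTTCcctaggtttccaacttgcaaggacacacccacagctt
IFI6: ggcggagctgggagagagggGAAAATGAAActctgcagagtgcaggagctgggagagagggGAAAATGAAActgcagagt
IFIT5: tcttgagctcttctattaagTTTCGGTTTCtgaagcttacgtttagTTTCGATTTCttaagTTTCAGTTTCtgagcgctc
IFIH1: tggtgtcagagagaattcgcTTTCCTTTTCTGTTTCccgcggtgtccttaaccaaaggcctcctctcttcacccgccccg
ISG20: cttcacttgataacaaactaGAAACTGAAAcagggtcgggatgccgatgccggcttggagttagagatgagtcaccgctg
IRF1: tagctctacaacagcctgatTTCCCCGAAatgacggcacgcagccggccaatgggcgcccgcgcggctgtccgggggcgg

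Total expected counts lay between 13059082 and 20166451 per library, with the lowest in SiREV1#1 replicate 1. SiREV1#2 replicate 3 was deposited with the counts of replicate 2, so tests on counts used 8 libraries, while FPKM values (fragments divided by gene length and sequencing depth) used all 9. REV1, the gene both siRNAs target, was measured first as a check of the labels. Its FPKM was 7.23, 7.90 and 8.44 in Scramble replicates 1 to 3, 2.60, 2.92 and 3.36 after SiREV1#1, and 3.62, 3.36 and 3.18 after SiREV1#2. Every library with a REV1 siRNA was below every scramble library. Replicate 1 of all 3 groups stood apart from replicates 2 and 3 across the genome, so siRNA comparisons are given with replicate 1, with the replicate number as a block, and without replicate 1. All 10 of the A549 epithelial markers examined had a mean FPKM over 1. The labels do not say whether replicates were separate cultures, so p-values measure the spread between these libraries, which may be technical.

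The 47 genes were mostly expressed at a low or moderate level. By mean FPKM over 9 libraries, 8 genes (17.0%) were under 0.1, 13 (27.7%) were from 0.1 to under 1, 18 (38.3%) were from 1 to under 10, and 8 (17.0%) were at 10 or more. Over all 18143 genes these shares were 20.0%, 17.0%, 29.2% and 33.9%. The median of the mean FPKM was 2.12 over the 47 genes and 3.96 over all genes. The 5 most abundant were IRF1 (mean FPKM 71.6), IRF3 (51.0), ISG20 (44.2), ADAR (30.5) and IFI35 (20.4). IRF1 and IRF3 are transcription factors, ISG20 is an exonuclease that degrades RNA, ADAR converts adenosine to inosine in double-stranded RNA, and IFI35 is an interferon-induced protein.

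Several genes known for a strong interferon response were low in every group. RSAD2, which encodes viperin, ranged from 0.02 to 0.26 FPKM over the 9 libraries. MX1, an antiviral GTPase, ranged from 0.26 to 0.72 and its neighbour MX2 from 0 to 0.05. IFI44 stayed at or under 0.25, IFI44L at or under 0.04, OAS2 at or under 0.20 and CMPK2 at or under 0.26. No siRNA group had a level of these genes above 1 FPKM in any library. Other interferon-stimulated genes of the list were higher. OAS1 ranged from 1.48 to 14.5 FPKM over the 9 libraries, IFI6 from 1.92 to 10.4, ISG15 from 2.14 to 7.23 and USP18 from 2.37 to 5.38. IFIT3 ranged from 1.48 to 3.12 and IFIT1 from 0.21 to 3.82.

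**Figure D1:**
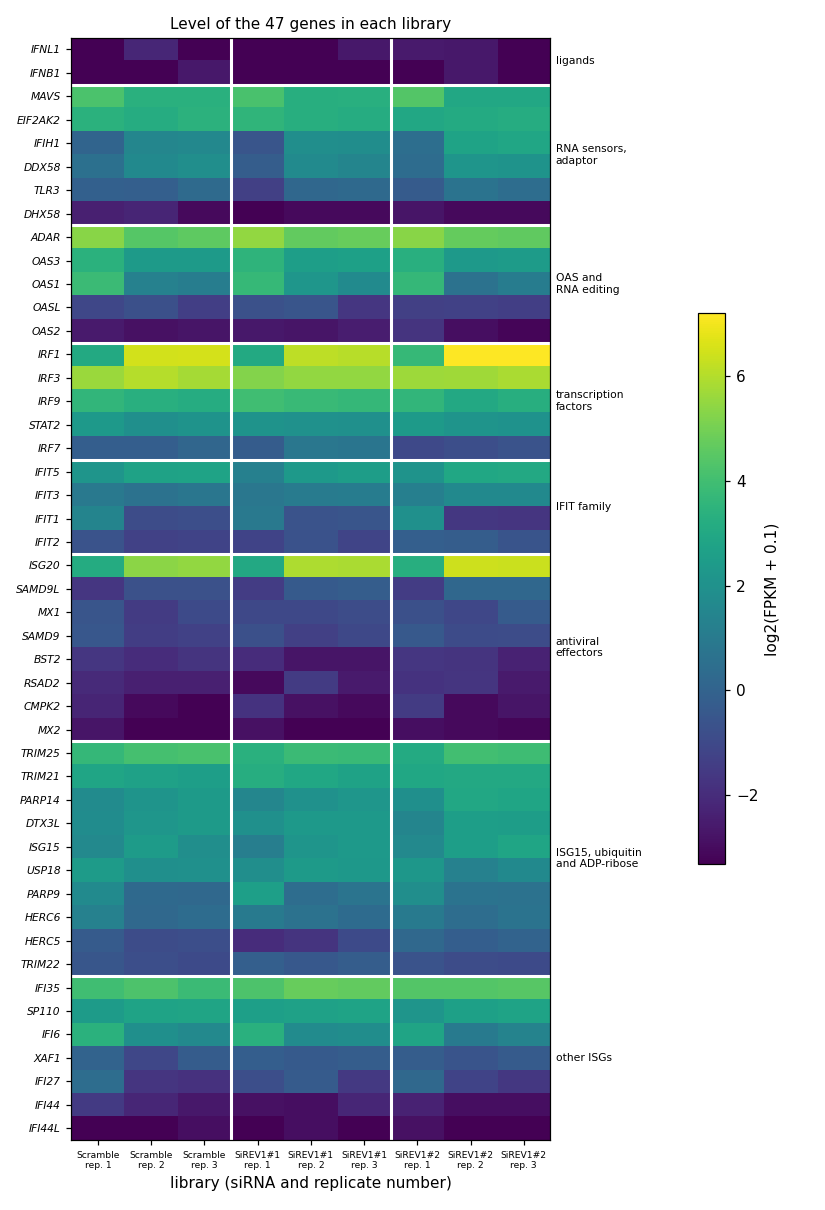
Level of each of the 47 genes (rows, grouped by role and ordered by mean level) in each of the 9 libraries (columns), as log2(FPKM + 0.1) on a colour scale. The ligands IFNB1 and IFNL1 are dark in every column, while IRF1 and ISG20 are darker in replicate 1 of each group than in replicates 2 and 3.

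Transcripts of both ligands were at or near 0. IFNB1, which encodes interferon beta, was listed at 0.06 FPKM in Scramble replicate 3 and SiREV1#2 replicate 2 and at 0 in the other 7 libraries. Its expected counts summed to 2 over the 8 count libraries, with at most 1 in a library. IFNL1, which encodes a lambda interferon, had 5 counts in all and at most 2 in a library, and its FPKM was at most 0.12. A count of 0 allows up to 3 counts, or 0.149 to 0.230 CPM (counts scaled to a common library size) in these libraries, so a difference in either ligand below this level was not detectable at this depth. This limit covers counting error only.

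The sensors and the adaptor were expressed, with 1 exception. DHX58, a helicase that tunes the other RNA helicases, was at most 0.11 FPKM and had at most 5 counts in a library. EIF2AK2 lay between 7.77 and 11.6 FPKM and TLR3 between 0.30 and 1.49. Together with IFNB1, IFNL1, OAS2, MX2, CMPK2, BST2, IFI44 and IFI44L, DHX58 did not pass the filter on low counts, which left 38 of the 47 genes tested. The filter can remove a gene only where it is low in too many libraries, so the 38 are not a sample of all 47.

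Replicate 1 differed from replicates 2 and 3 at most of these genes, in each siRNA group. With group in the model and 1 term for replicate 1, 24 of the 38 genes tested (63.2%) differed at an adjusted p under 0.05 in edgeR, 13 higher and 11 lower in replicate 1. Of all 14205 genes tested, 61.9% were called in this comparison, 4431 higher and 4361 lower, so the share among the interferon genes was near that of the genome. Their median log2 fold change was 0.25, against 0.02 over all genes tested. The genes did not move one way. IFI27, counted among the 13 higher, passed the filter on low counts only through first replicates, so its call carries no weight here.

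IRF1, a transcription factor induced by interferon and by inflammatory signals, showed the smallest p. Its FPKM was 8.33, 89.9 and 91.8 in Scramble replicates 1 to 3, 8.35, 71.0 and 67.6 after SiREV1#1, and 13.3, 147 and 147 after SiREV1#2. The 3 first replicates were all below the 6 others. Replicate 1 was 0.0917, 0.120 and 0.0905 times the mean of replicates 2 and 3 in the 3 groups in that order. The log2 fold change in edgeR was -3.08, with a standard error of 0.14 and an adjusted p of 9.44e-07. IRF1 lies on chromosome 5 at 132481609 to 132490798, minus strand (GRCh38, GENCODE release 29), and 22.0% of its exon bases lie opposite exons of C5orf56. Whether the libraries kept the strand is not given in the sources used here, so reads of overlapping genes cannot be told apart.

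ISG20 showed the same order. Its FPKM was 8.83, 41.7 and 45.4 in scramble, 8.06, 59.4 and 58.0 after SiREV1#1, and 9.64, 84.0 and 82.7 after SiREV1#2. The first replicates lay within 8.06 to 9.64 whatever the siRNA, while replicates 2 and 3 separated by group. The log2 fold change of replicate 1 was -2.54 (standard error 0.14, edgeR adjusted p = 2.47e-06).

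The RNA helicases fell with them. IFIH1 FPKM was 0.96, 2.78 and 2.94 in scramble, 0.59, 3.58 and 3.43 after SiREV1#1, and 1.29, 6.81 and 7.41 after SiREV1#2, with a log2 fold change of -2.07 in replicate 1 (standard error 0.18, edgeR adjusted p = 1.9e-05). DDX58 FPKM was 1.37, 3.12 and 3.58 in scramble, 0.75, 3.16 and 2.65 after SiREV1#1, and 1.21, 4.43 and 4.18 after SiREV1#2, with a log2 fold change of -1.60 (standard error 0.15, edgeR adjusted p = 3.43e-05). For both helicases the first replicates did not overlap the others. TLR3 also passed, at -0.85 (standard error 0.27, edgeR adjusted p = 0.0234), but its FPKM of 0.83 in Scramble replicate 1 lay above the 0.80 of replicate 2, and without SiREV1#1 replicate 1 the log2 fold change was -0.57 and was not called.

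The adaptor went the other way. MAVS FPKM was 18.4, 10.1 and 10.1 in scramble, 17.9, 9.45 and 9.87 after SiREV1#1, and 21.0, 7.89 and 7.89 after SiREV1#2. Its level in replicate 1 was above that in all 6 other libraries, with a log2 fold change of 1.09 (standard error 0.12, edgeR adjusted p = 5.81e-05). For EIF2AK2 the count fit gave 0.52 (standard error 0.10, edgeR adjusted p = 0.00195), while limma on log2(FPKM + 1) gave 0.06 and did not call it. EIF2AK2 FPKM was 10.5, 9.14 and 10.8 in scramble, 11.6, 9.69 and 9.02 after SiREV1#1, and 7.77, 8.61 and 9.03 after SiREV1#2. The first replicates overlapped the others.

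Among the oligoadenylate synthases, enzymes that double-stranded RNA switches on, OAS1 and OAS3 were higher in replicate 1. OAS1 FPKM was 14.5, 2.35 and 2.09 in scramble, 13.1, 4.49 and 3.22 after SiREV1#1, and 12.9, 1.48 and 2.05 after SiREV1#2. Its log2 fold change was 2.66 (standard error 0.21, edgeR adjusted p = 1.1e-05), opposite in sign to IRF1 and IFIH1. OAS3, the next gene on chromosome 12, was at 10.4, 5.18 and 5.24 in scramble, 11.4, 5.85 and 6.18 after SiREV1#1, and 9.97, 5.02 and 5.35 after SiREV1#2 (log2 fold change 1.03, standard error 0.08, edgeR adjusted p = 1.43e-05). ADAR rose by 0.82 (edgeR adjusted p = 0.000112), from 21.5 to 27.2 FPKM in replicates 2 and 3 to between 39.7 and 45.3 in replicate 1. OASL was not called in edgeR.

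**Figure D2:**
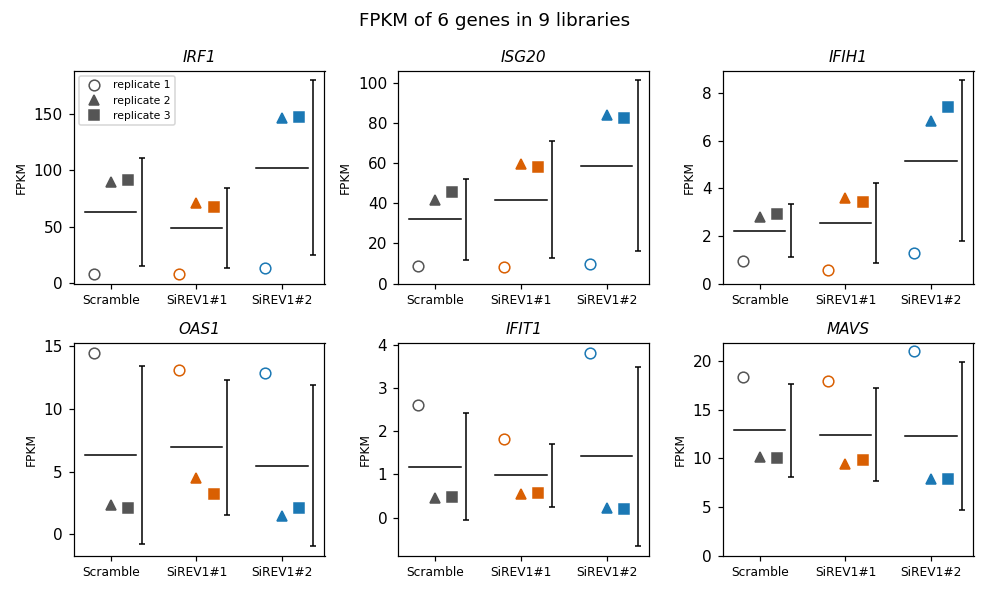
FPKM (vertical axes, one scale per gene) of IRF1, ISG20, IFIH1, OAS1, IFIT1 and MAVS in the 9 libraries, by siRNA group; symbols mark the replicate number, with replicate 1 open, horizontal lines the mean of 3 libraries and bars 1 SD. Replicate 1 is below replicates 2 and 3 for IRF1, ISG20 and IFIH1 and above them for OAS1, IFIT1 and MAVS in all 3 groups.

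The IFIT genes, whose proteins bind foreign RNA, stand in a row on chromosome 10 and did not move together. IFIT1 was higher in replicate 1, at 2.61, 0.45 and 0.47 FPKM in scramble, 1.83, 0.54 and 0.58 after SiREV1#1, and 3.82, 0.23 and 0.21 after SiREV1#2 (log2 fold change 2.64, standard error 0.31, edgeR adjusted p = 0.000105). IFIT5, which starts 8100 bases from the end of IFIT1, was lower, at 4.33, 6.55 and 6.77 in scramble, 2.27, 4.89 and 5.77 after SiREV1#1, and 4.13, 7.68 and 8.13 after SiREV1#2 (log2 fold change -0.83, standard error 0.12, edgeR adjusted p = 0.000351). Both promoters hold response element cores, as printed above. IFIT2 and IFIT3 were not called in edgeR.

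Other neighbours also parted. SAMD9 rose by 0.84 and SAMD9L fell by 1.46 on the log2 scale in replicate 1, both called in edgeR, and they lie 12032 bases apart on chromosome 7 in the same direction. PARP9 and DTX3L, whose proteins form a complex, are encoded on opposite strands of chromosome 3 and overlap. PARP9 FPKM was 3.19, 1.10 and 1.06 in scramble, 5.96, 1.24 and 1.54 after SiREV1#1, and 3.57, 1.53 and 1.47 after SiREV1#2, a log2 fold change of 1.84 (standard error 0.19, edgeR adjusted p = 5.71e-05). DTX3L was at -0.57 (standard error 0.16, edgeR adjusted p = 0.0118). Of the DTX3L exon bases, 3.70% lie opposite those of PARP9.

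ISG15 is a ubiquitin-like protein that is attached to other proteins. The remaining genes of the group that joins its pathway with ubiquitin and ADP-ribose enzymes divided as well. In replicate 1, ISG15 itself (-0.81), the ubiquitin ligase TRIM25 (-0.52) and the ADP-ribosyl transferase PARP14 (-0.64) fell on the log2 scale and HERC6 rose (0.78), each called in edgeR. USP18, which removes ISG15, TRIM21, TRIM22 and HERC5 were not called in edgeR. IFI6, a small protein that opposes apoptosis, was at 10.4, 3.69 and 3.01 FPKM in scramble, 10.1, 3.27 and 3.43 after SiREV1#1, and 6.95, 1.92 and 2.48 after SiREV1#2, with a log2 fold change of 1.73 (standard error 0.15, edgeR adjusted p = 1.77e-05). IFI27, counted among the 24, had at least 10 counts in only 2 libraries, both of them first replicates. It thus passed the filter through the replicate in which it was called higher. Its FPKM was 1.24, 0.21 and 0.18 in scramble, 0.47, 0.71 and 0.24 after SiREV1#1, and 1.07, 0.33 and 0.23 after SiREV1#2, it was not called in DESeq2, and with a minimum of 10 counts in every library it was not tested. IFI35, SP110 and XAF1 were not called in edgeR, nor were the effectors MX1 and RSAD2, while limma on FPKM without a block called SP110 lower in replicate 1. XAF1 ranged from 0.37 to 0.93 FPKM and SP110 from 4.41 to 6.95, and 38.3% of the XAF1 exon bases lie opposite another annotated gene.

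The factors that carry the interferon signal moved little beside IRF1. STAT2 rose by 0.36 (edgeR adjusted p = 0.012) and IRF9 by 0.43 (edgeR adjusted p = 0.00646) in replicate 1, while IRF3 (-0.10) and IRF7 (-0.57) were not called in edgeR. Limma on log2(FPKM + 1), which uses all 9 libraries, called both of the latter lower in replicate 1. STAT2 ranged only from 3.67 to 5.20 FPKM over all libraries. Of the exon bases of IRF9, 48.4% are shared with another annotated gene on the same strand.

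**Figure D3:**
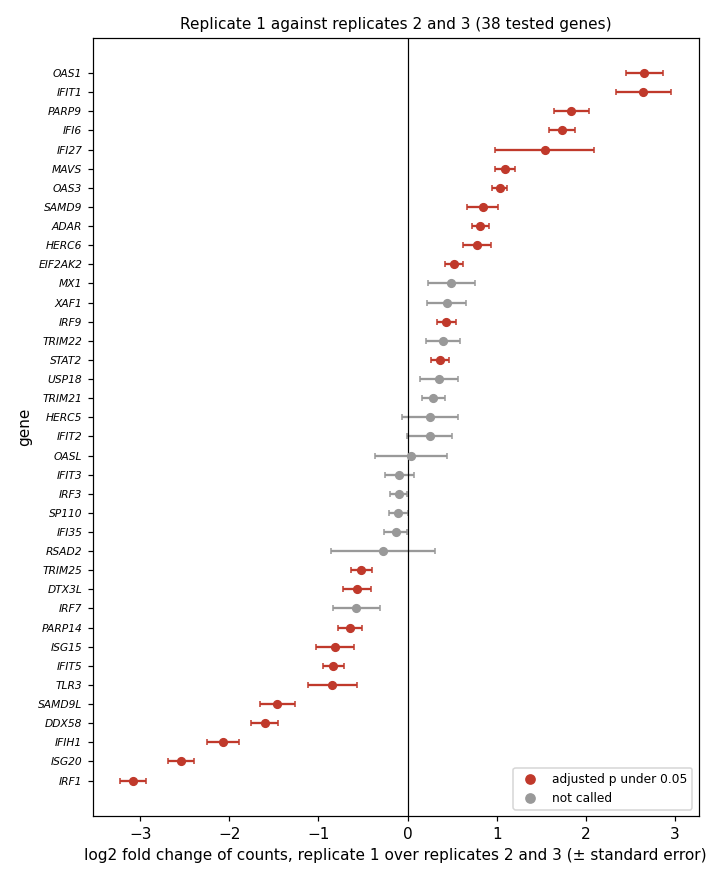
Log2 fold change of counts in replicate 1 over replicates 2 and 3 (horizontal axis, with its standard error) for the 38 genes tested in edgeR with group in the model; red points have an adjusted p under 0.05. Red points lie on both sides of 0, from -3.08 for IRF1 to 2.66 for OAS1.

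FPKM values, which include the ninth library, were compared in the same way for the 26 genes with a mean FPKM over 1. In all 3 groups replicate 1 was above the mean of replicates 2 and 3 for 10 genes and below it for 12, against 3391 and 4831 of 11429 genes overall. IFIT1, IFI6, OAS1 and PARP9 were more than 2-fold higher in every group and IFIH1, DDX58, ISG20 and IRF1 more than 2-fold lower. Over all genes with a mean FPKM over 1, 604 were more than 2-fold higher and 1008 more than 2-fold lower in every group. The response element core was present in 46.2% of the 13 promoter windows of genes higher in replicate 1, in 63.6% of the 11 windows of genes lower in it and in 57.1% of the remaining 14.

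Values of other measures moved with replicate 1, and their part in these differences was not tested. The 8 leukocyte markers, of which 5 were analysed here, summed to 46.2 FPKM in Scramble replicate 1, 89.1 in SiREV1#1 replicate 1 and 55.0 in SiREV1#2 replicate 1, and to between 21.3 and 30.4 in the other 6 libraries. By group the sum ranged from 21.3 to 46.2 in scramble, from 21.7 to 89.1 after SiREV1#1 and from 29.8 to 55.0 after SiREV1#2. Most of it was CD68, a lysosomal protein, at 39.5, 81.6 and 48.9 in the first replicates, while PTPRC, which all leukocytes carry, was at most 0.47 in any library. CD14, a receptor of monocytes, was at 5.73, 5.89 and 5.04 in the first replicates and at 0.13 to 0.43 in the others. ITGAM and LST1 went the other way, ITGAM at 0.66 to 1.04 in the first replicates against 1.69 to 4.96, and LST1 at 0 to 0.14 against 0.38 to 1.03. No marker of the list was at 0 in every library. The 10 A549 markers summed to 20835, 13372 and 12918 FPKM in Scramble replicates 1 to 3. Their sums were 12791, 13028 and 12772 after SiREV1#1, and 24739, 11657 and 11949 after SiREV1#2. By this sum replicate 1 stood apart in scramble and after SiREV1#2 but not after SiREV1#1, where single markers moved in opposite directions. After SiREV1#1, EPCAM, KRT8, CDH1, AKR1B10, AKR1C2, AKR1C3 and NQO1 were higher in replicate 1 than in replicates 2 and 3. AKR1B10 was at 2085 FPKM against 1206 and 1164. KRT7, KRT18 and ALDH1A1 were lower. KRT7 was lower in every first replicate, at 637.6 to 820.7 against 1415 to 1934.

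Between siRNA groups, 0 of the 38 genes passed for either siRNA against scramble in the edgeR fit without a block. At an unadjusted p under 0.05 stood 2 genes for SiREV1#1 and 3 for SiREV1#2, against 9.75% and 5.48% of all genes tested, and DESeq2 without a block also called 0 for each. Of all genes tested, 0.296% were called after SiREV1#1 and 0% after SiREV1#2. The spread in this fit includes the shift of replicate 1. The biological coefficient of variation, the relative spread of counts between replicates beyond counting noise, was 0.412 in it and 0.161 once the replicate number was added as a block.

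With the replicate block, 2 of the 38 genes (5.26%) rose after SiREV1#1 in edgeR, where 12.3% of all genes were called. They were IFI35 and IRF9. IFI35 FPKM was 15.7, 19.4 and 14.4 in scramble (mean 16.5 ± 2.56, SD, n = 3) and 18.9, 26.5 and 25.3 after SiREV1#1 (mean 23.6 ± 4.13, SD, n = 3), higher in 3 of 3 same-numbered pairs, with a log2 fold change of 0.59 (standard error 0.15, edgeR adjusted p = 0.0373). The groups overlapped, since SiREV1#1 replicate 1 lay below Scramble replicate 2. IRF9, the DNA-binding subunit of the interferon-activated factor, was at 12.2, 9.84 and 9.11 FPKM in scramble and at 15.5, 14.1 and 13.0 after SiREV1#1, with no overlap. IRF9 rose by 0.54 on the log2 scale (standard error 0.14, edgeR adjusted p = 0.0414). Another annotated gene on the same strand shares 48.4% of the IRF9 exon bases, so reads there cannot be told apart by strand. IRF3 libraries did not overlap between these groups either, at 49.4, 64.8 and 55.5 in scramble and 37.7, 44.6 and 45.4 after SiREV1#1, and its log2 fold change of -0.36 with the block was not called in edgeR (adjusted p = 0.104). Limma on log2(FPKM + 1) with the block, over all 9 libraries, called IRF3 lower, at -0.40 (adjusted p = 0.041). Of its exon bases, 19.3% lie opposite exons of BCL2L12.

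After SiREV1#2, 0 of the 38 genes passed with the block in edgeR, where 1.91% of all genes were called. At an unadjusted p under 0.05 stood 10 of the 38, a larger share than the 18.1% of all genes. Whether these shares differ was not tested. The lowest adjusted p was that of IFIH1, at a log2 fold change of 0.98 (standard error 0.23, edgeR adjusted p = 0.0798). IFIH1 FPKM after SiREV1#2 was above that of the same-numbered scramble library in 3 of 3 pairs. IRF1 was at 0.63 (edgeR adjusted p = 0.127), ISG20 at 0.69 (edgeR adjusted p = 0.112) and IRF7, a factor that amplifies interferon expression, at -1.49 (edgeR adjusted p = 0.106). DESeq2 with the block and limma on log2(FPKM + 1) with the block, the latter over all 9 libraries, both called IFIH1, IRF1 and ISG20 higher after SiREV1#2, and limma also called IFIT3 higher. IRF7 was a low gene, at 0.78, 0.78 and 1.02 FPKM in scramble, 0.74, 1.70 and 1.60 after SiREV1#1, and 0.40, 0.48 and 0.54 after SiREV1#2. Every SiREV1#2 library was below every other library for IRF7.

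Among the 26 genes with a mean FPKM over 1, same-numbered ratios to scramble held 1 direction in all 3 pairs for 11 genes after SiREV1#1 and for 15 after SiREV1#2. The 6 that were higher after SiREV1#1 were IFI35, OAS3, IRF9, TRIM21, PARP9 and ADAR, and the 5 that were lower were IFIT5, MAVS, IRF3, TRIM25 and PARP14. After SiREV1#2, 9 were higher, namely IFIT3, IFI35, IFIH1, ISG15, ISG20, IRF1, TRIM21, PARP9 and PARP14, and 6 were lower, namely IFI6, OAS1, EIF2AK2, USP18, TRIM25 and SP110. Over all 11429 genes with a mean FPKM over 1, 2244 were higher and 4053 lower in 3 of 3 pairs after SiREV1#1, and 2956 were higher and 3398 lower after SiREV1#2. Both sets of ratios rest on the same scramble libraries.

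**Figure D4:**
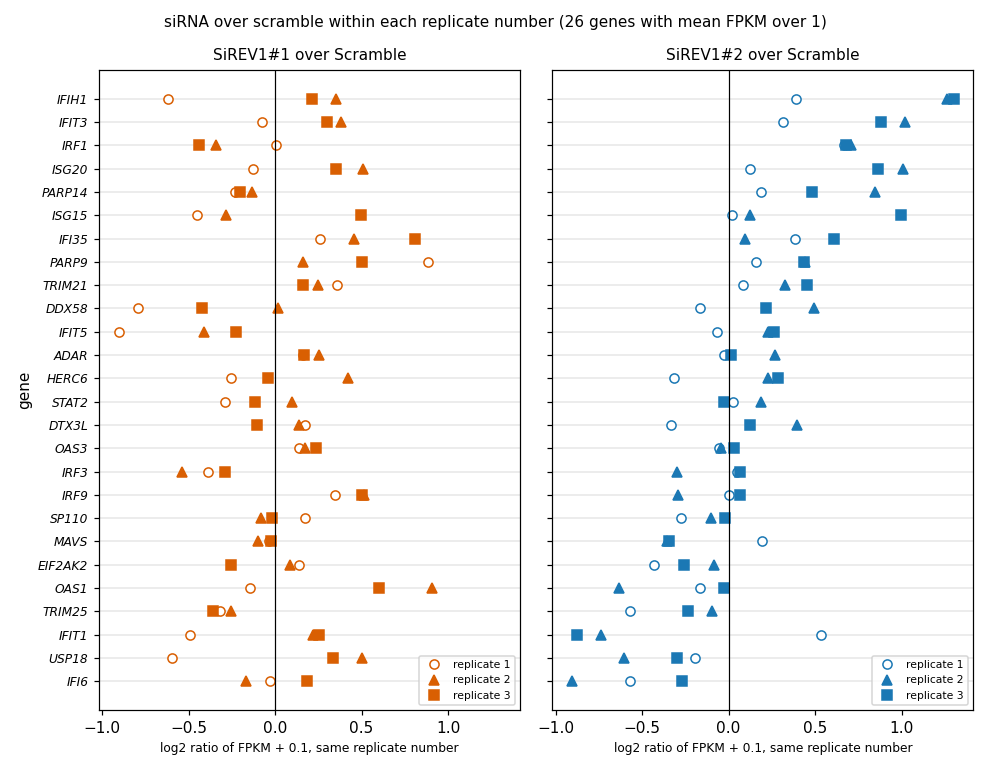
Log2 ratio of FPKM + 0.1 to the scramble library of the same replicate number (horizontal axes) after SiREV1#1 (left, orange) and SiREV1#2 (right, blue) for the 26 genes with a mean FPKM over 1; symbols mark the replicate number, with replicate 1 open. For IFIH1 the 3 ratios after SiREV1#2 are above 0, and after SiREV1#1 replicate 1 is below 0 and replicates 2 and 3 are above it.

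Without replicate 1, limma on log2(FPKM + 1) in replicates 2 and 3 called a large share of all genes. The median absolute log2 ratio of replicate 3 to replicate 2 was 0.12 over the 26 genes and 0.09 over all genes with a mean FPKM over 1. After SiREV1#1, 14 of the 39 genes tested (35.9%) were called, 10 higher and 4 lower, against 46.5% of all genes. After SiREV1#2, 18 of 39 (46.2%) were called, 13 higher and 5 lower, against 45.3% of all genes. The share called among the interferon genes was thus below or near that of the genome, and the median log2 difference was 0.09 and 0.14, against -0.01 and -0.00126 over all genes tested.

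In replicates 2 and 3, IFIH1 rose after both siRNAs on the log2(FPKM + 1) scale, by 0.22 after SiREV1#1 (standard error 0.08, limma adjusted p = 0.046) and by 1.07 after SiREV1#2 (standard error 0.08, limma adjusted p = 1.1e-05). ISG20 rose by 0.42 and 0.92. IRF1 fell by 0.39 after SiREV1#1 and rose by 0.69 after SiREV1#2, each called in limma. The 13 genes higher after SiREV1#2 held the sensors DDX58 and IFIH1, the RNA-binding IFIT2 and IFIT3, the effectors ISG20 and SAMD9L, the factor IRF1, ISG15 with its ligase HERC5, and PARP9, PARP14, TRIM21 and IFI35. The 5 lower were IFI6, IFIT1, IRF7, MAVS and USP18. After SiREV1#1 the 10 higher were ADAR, IFI35, IFIH1, IFIT3, IRF7, IRF9, ISG20, OAS1, TRIM22 and USP18. The 4 lower were IFIT5, IRF1, IRF3 and TRIM25. Some of these directions did not hold in the left-out replicate 1. There IFIH1, IFIT3, IRF7, ISG20, OAS1 and USP18 were below scramble after SiREV1#1, and IRF1 was level at 8.35 against 8.33 FPKM. After SiREV1#2, DDX58 was below scramble in replicate 1, and IFIT1 and MAVS were above it.

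The difference between the siRNAs was tested directly. In edgeR without a block, 0 of the 38 genes differed between SiREV1#1 and SiREV1#2, with 3 at an unadjusted p under 0.05 against 12.4% of all genes, and 0.676% of all genes were called. DESeq2 without a block called IRF7 and HERC5, and limma without a block called HERC5. With the block, 7 genes (18.4%) differed, against 17.6% of all genes, so the share was again near the background. IRF7 and IRF9 were higher after SiREV1#1, and HERC5, IRF1, IFIH1, IFIT5 and PARP14 were higher after SiREV1#2.

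HERC5, the ligase that attaches ISG15, was at 0.15, 0.20 and 0.41 FPKM after SiREV1#1 and at 1.08, 0.79 and 0.92 after SiREV1#2, with scramble between at 0.72, 0.45 and 0.48. The siRNA groups did not overlap, and the log2 fold change of SiREV1#1 over SiREV1#2 was -1.96 (standard error 0.40, edgeR adjusted p = 0.0161). IRF7 differed by 1.85 (standard error 0.39, edgeR adjusted p = 0.018), also without overlap. IRF9 differed by 0.65 (standard error 0.16, edgeR adjusted p = 0.0312). IRF1 (-0.86, standard error 0.18, edgeR adjusted p = 0.0175) and IFIH1 (-0.87, standard error 0.24, edgeR adjusted p = 0.0403) were lower after SiREV1#1 in each same-numbered pair, while replicate 1 of each group lay below replicates 2 and 3 of the other. IFIT5 (-0.61, edgeR adjusted p = 0.0439) and PARP14 (-0.66, edgeR adjusted p = 0.0452) were closest to the threshold.

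In replicates 2 and 3 alone, 18 of 39 genes (46.2%) differed between the siRNAs in limma, 8 higher and 10 lower after SiREV1#1, and 60.2% of all genes were called. All 7 genes of the blocked fit were among the 18, in the same direction, though the fits share libraries. DDX58 was lower after SiREV1#1 by 0.44 (limma adjusted p = 0.00315) and MAVS higher by 0.26 (limma adjusted p = 0.00581). In these replicates the sensor and its adaptor thus differed in opposite directions. In replicate 1 both were lower after SiREV1#1, DDX58 at 0.75 against 1.21 FPKM and MAVS at 17.9 against 21.0. In replicates 2 and 3, OAS1, IFI6 and IFIT1 were higher after SiREV1#1 and ISG20, IFIT3 and SAMD9L were higher after SiREV1#2. In replicate 1, IFIT1 was lower after SiREV1#1, at 1.83 against 3.82 FPKM, and SAMD9L was at 0.27 after each siRNA.

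**Figure D5:**
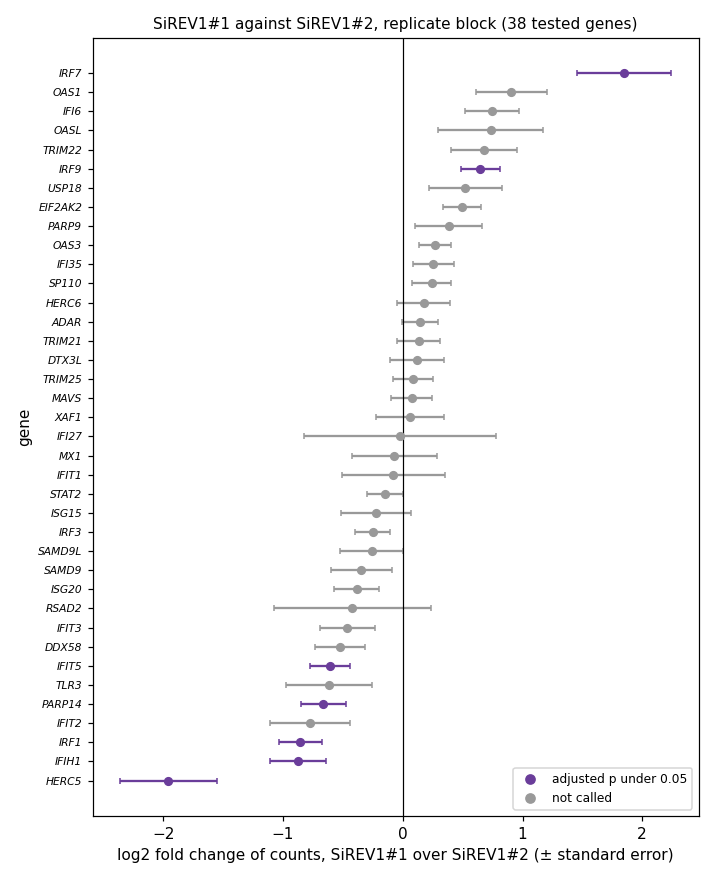
Log2 fold change of counts after SiREV1#1 over SiREV1#2 (horizontal axis, with its standard error) for the 38 genes tested in edgeR with the replicate block; purple points have an adjusted p under 0.05. IRF7 and IRF9 lie to the right of 0 and HERC5, IFIH1, IRF1, PARP14 and IFIT5 to the left.

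On FPKM of single genes, an exact permutation test of 3 libraries against 3 cannot go below p = 0.1, two-sided, which is the value for groups that do not overlap. Among the 26 genes with a mean FPKM over 1, this was the case for IRF9 and IRF3 between SiREV1#1 and scramble, and for IFIT3, IFI35, TRIM21 and EIF2AK2 between SiREV1#2 and scramble. These were 7.69% and 15.4% of the 26, and of all 11429 genes with a mean FPKM over 1 the groups did not overlap for 20.1% and 16.1%. IFIT3 FPKM was 1.79, 1.48 and 1.65 in scramble, 1.69, 1.96 and 2.05 after SiREV1#1, and 2.25, 3.10 and 3.12 after SiREV1#2. Between the siRNAs, IRF9, IFIT3 and IRF3 did not overlap, which is 11.5% of the 26 against 24% of all 11429 genes.

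Other genes of the pathway, 67 in number and outside the 47, were read as a second list, of which 58 were tested. In replicate 1, 41 of the 58 were called in edgeR, 13 higher and 28 lower, where 61.9% of all genes were called, 4431 higher and 4361 lower. The share called was thus somewhat above that of all genes. Of the 9 receptors and kinases, 7 were called lower, and IFNLR1, a subunit of the lambda interferon receptor, was called higher in edgeR and not in DESeq2 or limma. JAK2, a kinase of the interferon gamma receptor, was at -1.50 (edgeR adjusted p = 1.01e-05), and the chemokine CCL5 was at -1.69 (edgeR adjusted p = 0.00154). The antiviral zinc finger protein ZC3HAV1 rose by 2.62, called in edgeR. In edgeR without a block, 0 of the 58 were called in any siRNA comparison. DESeq2 and limma on log2(FPKM + 1), both without a block, called SP100, a nuclear body protein, lower after SiREV1#1 than in scramble, and SP100 and SOCS3, an inhibitor of cytokine signalling, lower after SiREV1#1 than after SiREV1#2.

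With the block, 5 of the 58 other genes were called after SiREV1#1, 1 after SiREV1#2 and 14 between the siRNAs in edgeR, against 12.3%, 1.91% and 17.6% of all genes tested. The share of the 58 was below that of all genes after SiREV1#1, near it after SiREV1#2 and above it between the siRNAs. IFITM2 and IFITM3, membrane proteins that block viral entry, rose after SiREV1#1 and IL10RB, PNPT1 and SP100 fell. IFITM3 FPKM was 19.9, 12.8 and 11.9 in scramble, 36.6, 20.3 and 19.0 after SiREV1#1, and 16.2, 6.22 and 7.14 after SiREV1#2. Each SiREV1#1 library was above and each SiREV1#2 library below the same-numbered scramble library, and the siRNAs differed by 1.46 on the log2 scale (standard error 0.22, edgeR adjusted p = 0.00528). IL10RB, a subunit of the lambda interferon receptor, was at 15.2, 37.7 and 37.0 in scramble, 3.54, 20.2 and 20.3 after SiREV1#1, and 16.9, 51.7 and 48.2 after SiREV1#2. The 4 further interferon ligands analysed here, IFNA1, IFNE, IFNL2 and IFNL3, summed to between 0.31 and 0.95 FPKM in every library. Most of this sum was IFNE, at 0.24 to 0.82, while IFNA1, IFNL2 and IFNL3 were each at most 0.14 in any library.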

How the data were processed

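RNA was sequenced on the BGISEQ-500 from A549 cells, 9 libraries in 3 groups, grouped by their sample labels. Per the labels and file headers, the authors deposited FPKM values rounded to 2 decimals and expected counts without normalization (42.6% not whole), for genes listed by NCBI Gene identifier. The submitters' processing notes name hg38 and StringTie 1.3.3b. The aligner, the counter and the strand setting are not given in the sources used here. Expected counts were rounded here and compared with edgeR 4.0.16 (R 4.3.3) by filterByExpr, TMM and the quasi-likelihood F test over 14205 genes, with Benjamini-Hochberg adjustment and a threshold of 0.05. All 3 groups entered 1 fit, without a block, and replicate 1 was set against replicates 2 and 3 by a further term. SiREV1#2 entered with 2 libraries, because the count column of replicate 3 equals that of replicate 2.

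The labels share replicate numbers across groups. After the group mean was taken off, libraries with the same number correlated between 0.734 and 0.929 in all 9 pairs over 11429 genes with a mean FPKM over 1, so the replicate block is given beside each result it changed. With replicate 1 apart in every group, these correlations largely carry that shift, and pairing of replicates 2 and 3 by number is not shown by them. FPKM values of single genes were compared with exact permutation tests on log2(FPKM + 0.1), and limma 3.58.1 (limma-trend) and DESeq2 1.42.0 gave alternatives. The fits were tested on simulated counts with planted changes. The simulation held no shift of replicate 1, so it does not show what the fit without a block could detect in these libraries. Promoter motifs were searched in RefSeq windows with Python 3.11.15, and gene positions come from GENCODE release 29.

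In full are given, per comparison, up to 5 genes with the smallest p among those called without a block, or otherwise with it, the sensors and adaptor, the ligands, the 5 most abundant genes, STAT2 and the IRF genes, and REV1. Other members are described by role. The members, lists and tests were chosen with earlier results of these data known. Alternatives were other scalings, filters, thresholds, pseudocounts, the repeated count column as deposited, and leaving out each library. Listed pathway genes and markers whose symbols were not found were not analysed here.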

Additional observations from a re-analysis of the deposited data

How the results depend on the processing

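Counts of called genes among the interferon genes depended on how replicate 1 was treated. After SiREV1#1, where 0 were called, the count was 2 with the replicate block, 2 with the replicate block in DESeq2, 3 with the replicate block in limma on log2(FPKM + 1), 13 in edgeR on replicates 2 and 3 only and 14 in limma on those replicates. After SiREV1#2, where 0 were called, it was 0 with the replicate block in edgeR, 3 with it in DESeq2, 4 with it in limma, and 14 in edgeR and 18 in limma on replicates 2 and 3. Of all genes, these fits in the same order called 12.3%, 12.4%, 15.1%, 46.5% and 46.5% after SiREV1#1 and 1.91%, 4.71%, 8.12%, 38.4% and 45.3% after SiREV1#2. Between the siRNAs, where 0 were called, it was 7 with the replicate block, 8 with it in DESeq2, 13 with it in limma, 18 in edgeR and 18 in limma on replicates 2 and 3, against 17.6%, 16.2%, 29.9%, 54.4% and 60.2% of all genes. It was 2 in DESeq2 without a block, 2 with the count columns as deposited, and 1 in limma without a block on log2(FPKM + 1), on log2(FPKM + 0.1) and on the latter without a filter. In edgeR on replicates 2 and 3, SiREV1#2 has 1 library, which is assumed to vary like the others. The limma fit on replicates 2 and 3 and DESeq2 with the block were chosen after seeing the data.

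The 24 genes called in replicate 1 were 20 to 27 under other settings and 22 to 24 when a library was left out, and those siRNA counts stayed at 0 without any 1 library. In replicate 1, TLR3, EIF2AK2, STAT2, DTX3L and IFI27 lost their call under at least 1 setting, IFI27 also without any of 6 single libraries. CMPK2, IRF3, IRF7, MX2, SP110, TRIM21, TRIM22 and USP18 gained one under at least 1, IRF7 also without Scramble replicate 1. Upper-quartile scaling moved the median log2 fold change of all genes in replicate 1 from 0.02 to 0.12. The mean log2 difference of IFIH1 FPKM after SiREV1#1, -0.017 with a pseudocount of 0.1, was 0.048 with 1. Depth limits IFNB1, IFNL1 and the 7 other genes under the filter.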
